A study of Mus musculus with 7 samples.

Results

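Genes of fatty acid uptake and oxidation were followed in the left plantaris, a calf muscle of mostly fast fibres, while it regrew after disuse. The set was chosen by function: 33 named genes that carry fatty acids into the cell, activate them, pass them into the mitochondrion and oxidise them. A row with a single gene symbol was found for 30 of the 33, out of 19938 genes with such a row on the array. Acsl1, Acsl3 and Cpt1b were not analysed here, because no row carries their symbol alone. All 30 passed the filter on low values, as did 12102 genes in all. The animals were male C57BL/6J mice aged 5 months, all of them suspended by the hind limbs for 2 weeks. The control group, d0, had just completed suspension, and the others had been reloaded afterwards for 1, 3, 5, 7, 10 or 14 days (d1 to d14). Each time point is 1 Affymetrix Mouse Gene 1.0 ST array of RNA pooled from 6 animals. No group has replicates, and no mice that were never suspended were analysed here, so a difference between 2 arrays carries no error, and precision is limited by how few arrays there are.

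Fatty acids reach muscle from lipoproteins and from albumin, cross the membrane with the help of transport proteins and are bound in the cytosol. Acyl-CoA synthetases activate them, the carnitine shuttle moves the acyl groups into the mitochondrion, and each turn of beta-oxidation then shortens the chain by an acetyl unit and hands electrons to the respiratory chain. Muscle raises this pathway with endurance use, and much of its transcription is known to be driven by PPAR and ERR nuclear receptors, which bind DNA at copies of a short half-site.

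The promoter windows of 5 genes on which the results turn are shown, from 250 bases before to 50 after the start site, taken from RefSeq on GRCm38.p6. Windows were found for 28 of the 33 named genes. The nuclear receptor half-site AGGTCA, searched on both strands, lay in the windows of 6 of the 28 (Acadm, Acadvl, Cd36, Cpt1a, Echs1 and Ucp3), or 21.4%, against 18.1% of 27025 genes with a window. A direct repeat of AGGTCA spaced by 1 base of any kind lay in 0 of the 28 and in 0.0481% of all genes, and the extended half-site TNAAGGTCA in 0 of the 28 and in 1.43% of all genes. The direct repeat and the extended half-site both contain AGGTCA. The GC box GGGCGG lay in 21 of the 28, or 75%, against 38.2% of all genes. A match is a description of the letters and was not tested as a site. Capitals mark GGGCGG (or CCGCCC on the other strand) in Cpt2 and Acads, and AGGTCA (or TGACCT on the other strand) in Acadm and Echs1. In Hadhb they mark the 228 bases that its window shares with that of Hadha, which is read from the opposite strand. The windows lie at chr4:107923540-107923839 (minus strand) for Cpt2, chr5:115119297-115119596 (minus) for Acads, chr3:153944594-153944893 (minus) for Acadm, chr7:140116372-140116671 (minus) for Echs1 and chr5:30155003-30155302 (plus) for Hadhb.
Cpt2: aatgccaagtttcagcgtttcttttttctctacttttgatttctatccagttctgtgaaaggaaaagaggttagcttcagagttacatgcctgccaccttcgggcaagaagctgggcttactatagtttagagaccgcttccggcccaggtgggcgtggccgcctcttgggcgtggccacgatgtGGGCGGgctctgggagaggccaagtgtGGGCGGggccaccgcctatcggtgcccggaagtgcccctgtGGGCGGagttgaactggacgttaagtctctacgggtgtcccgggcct
Acads: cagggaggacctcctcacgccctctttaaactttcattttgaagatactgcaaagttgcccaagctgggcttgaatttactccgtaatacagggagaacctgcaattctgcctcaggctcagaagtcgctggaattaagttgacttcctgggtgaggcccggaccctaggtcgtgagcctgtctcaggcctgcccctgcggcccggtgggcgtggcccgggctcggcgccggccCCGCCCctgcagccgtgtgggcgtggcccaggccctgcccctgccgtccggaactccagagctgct
Acadm: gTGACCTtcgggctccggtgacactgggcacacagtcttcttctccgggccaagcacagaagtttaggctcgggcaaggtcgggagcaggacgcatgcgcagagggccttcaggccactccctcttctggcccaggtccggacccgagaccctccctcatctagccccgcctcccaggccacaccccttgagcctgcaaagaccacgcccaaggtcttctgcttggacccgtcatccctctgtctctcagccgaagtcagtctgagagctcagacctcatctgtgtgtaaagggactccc
Echs1: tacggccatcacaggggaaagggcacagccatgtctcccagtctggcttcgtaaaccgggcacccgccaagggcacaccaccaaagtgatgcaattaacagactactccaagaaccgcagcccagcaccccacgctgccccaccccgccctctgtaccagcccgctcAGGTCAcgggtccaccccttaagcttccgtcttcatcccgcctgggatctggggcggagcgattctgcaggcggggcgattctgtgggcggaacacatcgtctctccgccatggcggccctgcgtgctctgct
Hadhb: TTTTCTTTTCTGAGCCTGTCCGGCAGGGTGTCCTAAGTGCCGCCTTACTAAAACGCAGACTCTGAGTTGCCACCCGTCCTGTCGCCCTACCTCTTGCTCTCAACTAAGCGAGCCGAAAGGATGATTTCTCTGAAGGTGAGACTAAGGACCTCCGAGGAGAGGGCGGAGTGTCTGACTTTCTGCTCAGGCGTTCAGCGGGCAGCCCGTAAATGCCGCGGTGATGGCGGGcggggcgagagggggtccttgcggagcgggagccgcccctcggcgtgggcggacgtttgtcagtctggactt

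Over the whole set the median log2 ratio to d0 was -0.02 (d1), 0.02 (d3), 0.11 (d5), 0.21 (d7), 0.29 (d10) and 0.22 (d14). The median of all 12102 genes lay between 0.05 and 0.10 on the same days. The number of the 30 genes above d0 was 13 (d1), 17 (d3), 22 (d5), 27 (d7), 29 (d10) and 28 (d14). The share of all genes above d0 was 70.9% (d1), 65.5% (d3), 61.1% (d5), 66% (d7), 72.2% (d10) and 71.3% (d14), so the set's count was below that share on d1 and d3 and above it later. A line at 1.3-fold was used only to count. Above d0 by that much stood 2 of the 30 on d1, where 11% of all genes did, 1 on d3 (6.71% of all genes), 1 on d5 (5.6%), 5 on d7 (8.63%), 9 on d10 (8.86%) and 7 on d14 (4.26%). Below d0 by that much stood 2 on d1 (2.26% of all genes), 1 on d3 (2.05%), 0 on d5 (2.3%), 0 on d7 (1.96%), 1 on d10 (1.74%) and 0 on d14 (1.27%). Those below were Ucp3 and Echs1 on d1, and Ucp3 on d3 and d10. Acsl5 is among the genes counted above d0, by any amount and by 1.3-fold, on d1 and d10. It passed the filter on low values through those days only, so its part in these counts is no finding. None of the 30 differed by 2-fold from d0 on any day. The 6 ratios of a gene share the d0 array, so they are not independent of each other.

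**Figure D1:**
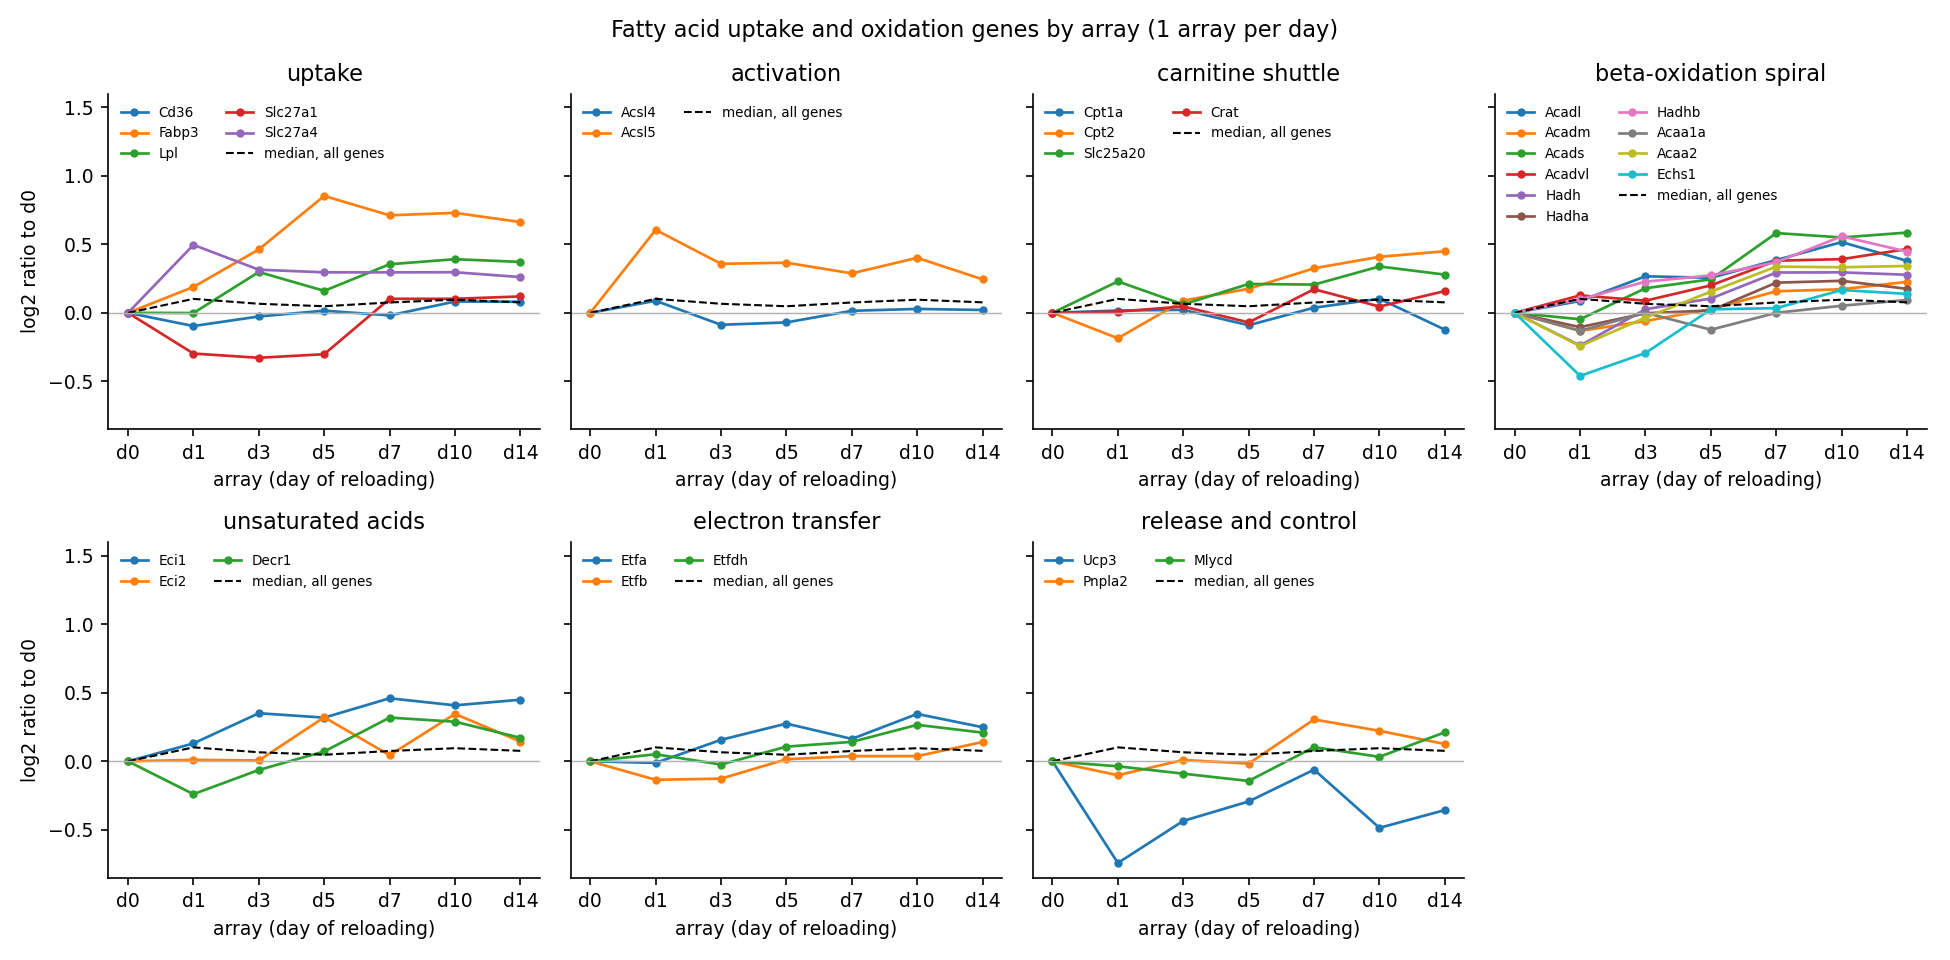
Log2 ratio of each gene's intensity to d0 (vertical axis) on the 7 arrays (horizontal axis), in 1 panel per step, with the median of all kept genes dashed. Fabp3 stands highest from d3 on, Ucp3 lies below d0 throughout, and most beta-oxidation genes lie lower at d1 than at d7 to d14.

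Uptake genes did not share one course. Fabp3, the fatty acid-binding protein of muscle cytosol, had an intensity of 3097.3 (d0), 3529.9 (d1), 4267.6 (d3), 5593.4 (d5), 5070.8 (d7), 5134.5 (d10) and 4901.1 (d14). It was thus 1.81-fold above d0 at d5 (log2 0.85), the largest ratio of the 30 genes on any day, and every day from d5 on lay above d1 and d3. Lpl, the lipase that frees fatty acids from circulating lipoproteins, had 3072.1 (d0), 3069.1 (d1), 3776.1 (d3), 3433.1 (d5), 3927.5 (d7), 4028.7 (d10) and 3974.1 (d14). It was level at d0 and d1 and 1.12-fold to 1.31-fold above d0 afterwards. Cd36, the membrane fatty acid translocase, stayed between 3300.6 (d1) and 3736.3 (d10), a range of 0.18 on the log2 scale.

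The transporters Slc27a1 (FATP1) and Slc27a4 (FATP4), which also have acyl-CoA synthetase activity, went different ways. Slc27a1 had 1405.2 (d0), 1143.6 (d1), 1119.4 (d3), 1139.9 (d5), 1508.5 at both d7 and d10, and 1526.5 (d14). Its arrays fell into a low set (d1, d3 and d5) and a high set (d7, d10 and d14), with d0 between them. Slc27a4 had 181.8 (d0), 256.3 (d1), 226.1 (d3), 223.1 at both d5 and d7, 223.2 (d10) and 217.8 (d14), so d0 lay lowest and d1 highest.

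Lpl, Cd36 and Slc27a1 are also made by fat cells and Cd36 by capillary endothelium. The 7 adipocyte markers past the filter, out of 10 listed, had a summed intensity of 3519.3 (d0), 4359.5 (d1), 4151.5 (d3), 4146.8 (d5), 3966.1 (d7), 4415.6 (d10) and 4436.8 (d14). Fabp4 alone made up 1989.2 of that sum at d0. On every day but d5, 7 of 7 were above d0, where 65.5% (d3) to 72.2% (d10) of all genes were. The 10 endothelial markers summed to 6223.4 at d0 and to between 7103.6 (d5) and 7778.3 (d10) later. The adipocyte list shares Cidec, Fabp4 and Plin1 with the lists of other lipid genes described later. No marker is listed at 0. Their part in the courses of the uptake genes was not tested. In pooled whole muscle, fewer cells of a type and less RNA per cell cannot be told apart.

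Of the 4 activation genes only Acsl4 and Acsl5, both long-chain acyl-CoA synthetases, were measured. Acsl5 had 99.2 (d0), 150.9 (d1), 127.1 (d3), 127.8 (d5), 121.1 (d7), 131.0 (d10) and 117.5 (d14). The d1 value was 1.52-fold that of d0. The filter asked for an array's median over all rows (128.1 to 131.8) on at least 1 array, and Acsl5 reached it on d1 and d10 only, whereas each of the other 29 genes reached it on all 7 arrays. Acsl5 was thus kept through the days on which it was highest, and its high d1 value is no finding. Acsl4, which prefers arachidonic acid, stayed between 568.2 (d3) and 641.6 (d1). The 10 macrophage markers past the filter, out of 11 listed, summed to 4140.7 (d0), 6325.5 (d1), 6185.1 (d3), 5339.9 (d5), 3996.1 (d7), 5102.2 (d10) and 3745.6 (d14). All 10 of these markers were above d0 at d1, as were 70.9% of all genes. Their part in the d1 values of Acsl5 and Slc27a4 was not tested.

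Within the carnitine shuttle, Cpt2 had the widest range over the 7 arrays. Cpt2, the inner-membrane palmitoyltransferase that rebuilds acyl-CoA in the matrix, had 1030.8 (d0), 906.3 (d1), 1096.4 (d3), 1164.2 (d5), 1291.2 (d7), 1368.3 (d10) and 1407.1 (d14). Among the 6 reloaded days every later array was higher than the one before it, and d14 was 1.55-fold above d1, the lowest array. Slc25a20, the carnitine-acylcarnitine translocase, had its lowest value at d0 (1152.1) and its highest at d10 (1456.7), with 1350.1 at d1 and 1201.8 at d3. Crat, the carnitine acetyltransferase that buffers acetyl-CoA, stayed between 5046.3 (d5) and 5968.3 (d7). Cpt1a, the liver-type isoform of the outer-membrane transferase, stayed between 315.4 (d14) and 368.7 (d10). The muscle isoform of that enzyme is Cpt1b, so the first step of the shuttle as it runs in muscle was not measured by these rows.

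The 10 genes of the beta-oxidation spiral had medians of -0.12 (d1), 0.01 (d3), 0.13 (d5), 0.32 (d7), 0.31 (d10) and 0.31 (d14), as log2 ratios to d0. At d1, 7 of the 10 lay below d0, as did 3030 of all 12102 genes. At d10 and d14 all 10 lay above d0, as did 72.2% (d10) and 71.3% (d14) of all genes. The acyl-CoA dehydrogenases take the first step, each for its own chain length. Acads, for short chains, had 891.9 (d0), 863.3 (d1), 1010.0 (d3), 1056.6 (d5), 1335.0 (d7), 1305.5 (d10) and 1338.3 (d14). The 3 last arrays lay close together and 1.46-fold to 1.5-fold above d0. Acadvl, for very long chains, had 779.0 (d0), 850.7 (d1), 828.2 (d3), 895.0 (d5), 1013.9 (d7), 1021.8 (d10) and 1075.3 (d14). Acadl, for long chains, was lowest at d0 (1952.9) and highest at d10 (2792.6, 1.43-fold above d0). Acadm, for medium chains, had 4170.5 (d0), 3806.1 (d1), 4000.9 (d3), 4247.8 (d5), 4650.9 (d7), 4698.2 (d10) and 4877.7 (d14). Its d14 value was 1.17-fold above d0 and 1.28-fold above d1.

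The later steps of the spiral included the gene with the lowest d1 value of the 10 relative to d0. Echs1, the short-chain enoyl-CoA hydratase, had 1164.0 (d0), 846.2 (d1), 950.0 (d3), 1184.6 (d5), 1191.9 (d7), 1306.1 (d10) and 1280.8 (d14). It stood 0.727-fold of d0 at d1, and from d5 on all arrays were above d0. Hadh, the short-chain hydroxyacyl-CoA dehydrogenase, had 5618.6 (d0), 4762.8 (d1), 5720.8 (d3), 6039.4 (d5), 6888.6 (d7), 6894.4 (d10) and 6810.8 (d14). Acaa2, the mitochondrial thiolase, had 2757.8 (d0), 2330.6 (d1), 2692.1 (d3), 3069.1 (d5), 3483.0 (d7), 3472.6 (d10) and 3495.1 (d14). Both were lowest at d1 and nearly level from d7 to d14. Acaa1a, the thiolase of peroxisomes, ranged only from 215.1 (d1) to 251.4 (d14), with 235.6 on each of d0, d3 and d7.

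Hadha and Hadhb encode the alpha and beta subunits of the mitochondrial trifunctional protein, which handles long chains, and lie head to head with overlapping promoter windows (above). Hadha had 2883.1 (d0), 2681.6 (d1), 2876.9 (d3), 2917.5 (d5), 3358.0 (d7), 3389.4 (d10) and 3254.7 (d14). Hadhb had 2283.6 (d0), 2444.1 (d1), 2672.9 (d3), 2759.7 (d5), 2949.2 (d7), 3362.0 (d10) and 3111.9 (d14). Both were highest at d10, but Hadha was lowest at d1 and Hadhb at d0. At d10 the ratio to d0 was 1.18-fold for Hadha and 1.47-fold for Hadhb, a difference that was not tested.

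Enzymes for unsaturated chains and the electron carriers were all above d0 from d5 on, where 61.1% (d5) to 72.2% (d10) of all genes were. Eci1, an enoyl-CoA isomerase of mitochondria, had 981.7 (d0), 1074.8 (d1), 1251.9 (d3), 1224.4 (d5), 1350.3 (d7), 1302.9 (d10) and 1340.4 (d14), so d0 was the lowest array. Decr1, the mitochondrial dienoyl-CoA reductase, had 1089.6 (d0), 923.0 (d1), 1043.1 (d3), 1145.3 (d5), 1359.1 (d7), 1331.2 (d10) and 1227.0 (d14). Eci2, a second isomerase, was uneven, with 662.3 (d5), 546.8 (d7), 673.6 (d10) and 585.9 (d14), against 530.1 (d0). Etfa and Etfb form the flavoprotein that takes electrons from the dehydrogenases, and Etfdh passes them to ubiquinone. Etfa ranged from 1233.4 (d1) to 1579.7 (d10), Etfb from 3865.7 (d1) to 4679.4 (d14) and Etfdh from 1372.9 (d3) to 1678.2 (d10). In each of these 3 genes d5, d7, d10 and d14 all lay above d1 and d3, which 7.19% of all genes showed. These windows of days were chosen with earlier results known.

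Ucp3, a mitochondrial carrier of muscle whose expression is known to follow fatty acid supply, was the only one of the 30 below d0 on all 6 reloaded days. It had 1111.5 (d0), 664.7 (d1), 822.3 (d3), 907.3 (d5), 1065.5 (d7), 794.0 (d10) and 868.6 (d14). Its d0 array was the highest of the 7, and d1 was 0.598-fold of d0 (log2 -0.74), the lowest ratio of the 30 genes on any day. Pnpla2, the adipose triglyceride lipase that opens stored fat, had 2391.0 (d0), 2228.7 (d1), 2407.5 (d3), 2363.3 (d5), 2954.5 (d7), 2789.9 (d10) and 2609.6 (d14). Mlycd, the decarboxylase that removes malonyl-CoA, the inhibitor of the outer carnitine transferase, ranged from 367.7 (d5) to 470.3 (d14).

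The steps were compared by their medians, as a description, since a step holds 2 to 10 genes. At d1 the beta-oxidation spiral stood at -0.12, the carnitine shuttle at 0.01 and uptake at 0.00. Activation is left out of this comparison, since 1 of its 2 genes, Acsl5, was kept through its d1 and d10 values, and Acsl4 alone stood at 0.09 at d1. At d3 uptake stood at 0.30, the spiral at 0.01 and the shuttle at 0.05, but 2 of the 5 uptake genes then lay below d0 (Slc27a1 at -0.33 and Cd36 at -0.03). At d5 uptake stood at 0.16, the spiral at 0.13 and the shuttle at 0.05. From d7 to d14 the spiral (0.31 to 0.32) and uptake (0.26 to 0.30) lay above the shuttle (0.19 to 0.22). The uptake median was the value of Lpl on d1, d3 and d5, and that of Slc27a4 on d7, d10 and d14. The lowest array of Slc27a4 was d0, and its slope over the 6 reloaded days was negative (-0.07), so the place of uptake on d7, d10 and d14 turned on d0. Unsaturated-chain enzymes were at 0.32 by d5, the electron carriers had their highest median at d10 (0.27), and the release and control genes were at most at 0.13 (d14). Genes of a step also differed among themselves, and at d10 uptake ran from 0.08 (Cd36) to 0.73 (Fabp3).

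**Figure D2:**
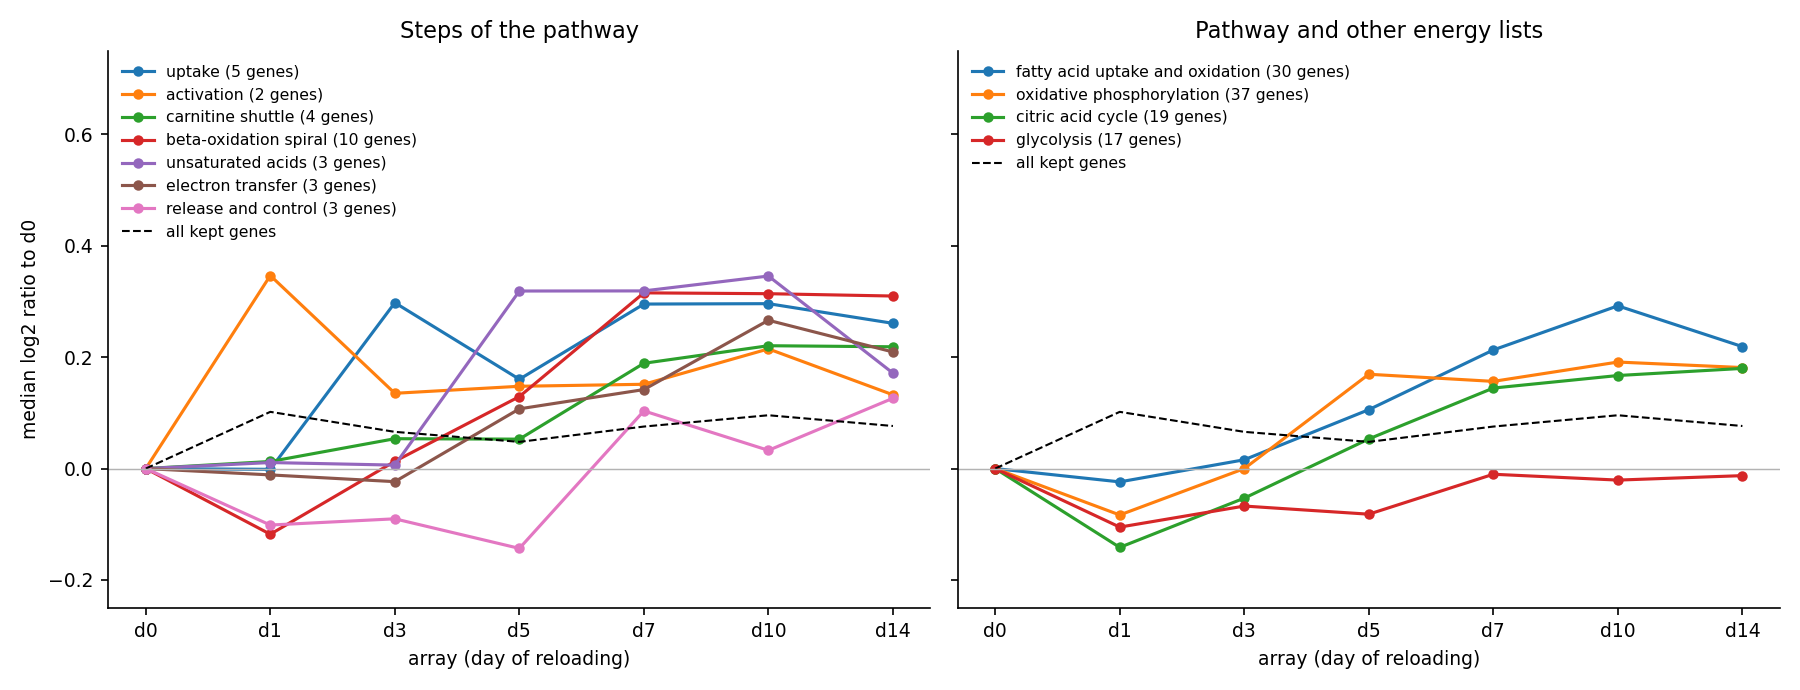
Median log2 ratio to d0 (vertical axis) on the 7 arrays (horizontal axis), for the steps of the pathway on the left and for the 30 genes beside 3 other energy lists on the right, with all kept genes dashed. The beta-oxidation spiral lies at -0.12 at d1 and at 0.31 or 0.32 from d7 on, and glycolysis stays at or below 0.

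The d0 array was the lowest of the 7 for 39.4% of all kept genes and for 9 of the 30, and d1 was the lowest for 10.6% of all kept genes and for 15 of the 30. The highest array was d10 for 12 of the 30 and d14 for 9, against 21.3% and 9.93% of all kept genes. The neutrophil markers, 9 of 9 above d0 at d10 (72.2% of all genes), summed to 9233.8 there, against 1497.2 at d0, and their part in the d10 values was not tested. With d14 in place of d0 under the ratio, the median of the 30 genes was -0.29 (d1), -0.19 (d3), -0.13 (d5), -0.01 (d7) and 0.02 (d10), while that of all genes lay between -0.01 and 0.01. With either reference d1 had the lowest median of the 6 reloaded days. Between d7 and d14 none of the 30 differed by 1.3-fold in either direction (1.72% of all genes did).

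A slope of log2 intensity on log2(day + 1) was tested with limma across all 12102 genes, two-sided, with Benjamini-Hochberg adjustment. Its error holds the spread between pools of different animals as well as any curvature of the course. Over the 6 reloaded days Cpt2 was the only one of the 30 that passed an adjusted p of 0.05. It rose by 0.22 ± 0.02 (SE) per doubling of day + 1, with a limma adjusted p of 0.0469, where 0.157% of all genes rose and 0.198% fell. That call was lost when any of the 6 arrays was left out (limma adjusted p 0.0987 to 0.303), with no filter on low values (0.0874), without the intensity trend in limma (0.0504) and with the day on a linear scale (0.343). The slope stayed between 0.20 and 0.24 on the log2(day + 1) scale in the fits with an array left out.

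Next in that fit came 5 genes of the spiral that did not pass. Acaa2 had a slope of 0.22 ± 0.03 (SE; limma adjusted p 0.0540), Echs1 of 0.23 ± 0.03 (0.0609), Acadm of 0.13 ± 0.02 (0.0609), Hadh of 0.19 ± 0.03 (0.0615) and Acads of 0.24 ± 0.04 (0.0696). These 5 and Cpt2 all passed under quantile normalization, where 75 of all genes rose and 65 fell, and with the filter at percentile 75, where 93 rose and 69 fell. By contrast, 0 of the 30 rose with any array left out or with no filter on low values. The same held without the intensity trend and with the day on a linear scale. In the fit given first, 19 of all genes rose and 24 fell. In all, 26 of the 30 slopes were positive, as were 5797 of the 12102 over all genes. The median slope was 0.11 over the 30, against -0.00 over all genes. Slopes were also positive for 37 of 37 oxidative phosphorylation genes, 19 of 19 citric acid cycle genes and 16 of 17 genes of glycolysis and glycogen. An unadjusted limma p under 0.05 with a positive slope was found for 21 of the 30 (6.88% of all genes), among them all 10 of the spiral, and with a negative slope for 2 (6.39%), Slc27a4 (-0.07) and Acsl5 (-0.10). The slope of Acsl5 is no finding, since d1, where it is highest, is a day that carried it past the filter. These counts are a description and carry no test of the set. The macrophage markers had 0 of 10 positive slopes over the same days, with a median of -0.17, and 6 of the 10 had an unadjusted limma p under 0.05. Their part in the slopes of the set was not tested.

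**Figure D3:**
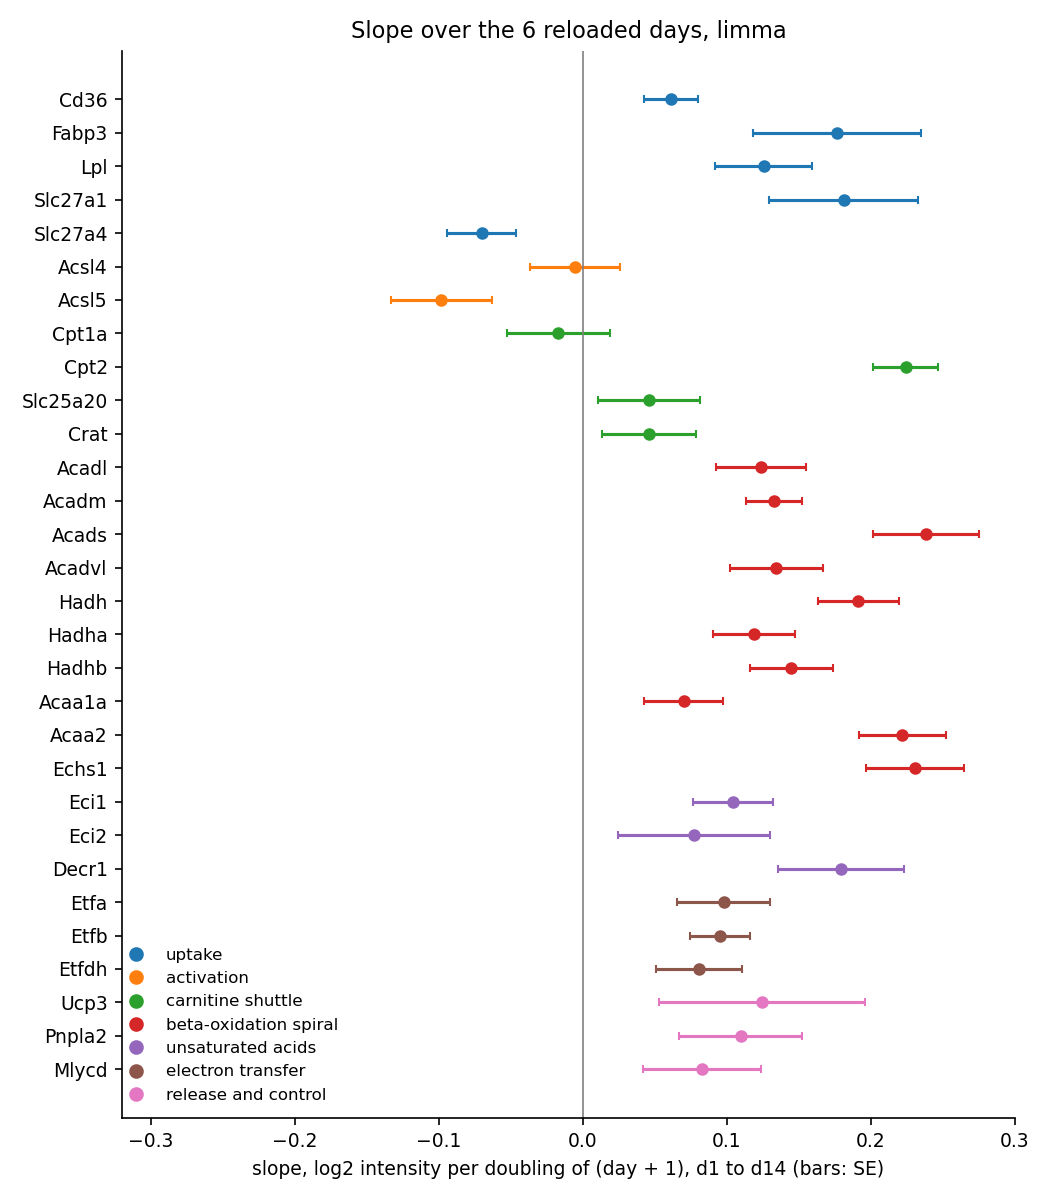
Slope of log2 intensity per doubling of day + 1 over d1 to d14 (horizontal axis) for each gene (vertical axis, coloured by step), with bars of 1 SE from limma. All 10 genes of the beta-oxidation spiral have positive slopes, as does Cpt2 (0.22), while Slc27a4, Acsl5, Cpt1a (-0.017) and Acsl4 (-0.0053) lie below 0.

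Over all 7 arrays no gene of the 12102 passed (0% rose and 0% fell), and the lowest limma adjusted p of the set was 0.231, for Hadhb (slope 0.13 ± 0.02, SE). At an unadjusted limma p under 0.05, 16 of the 30 had a positive slope in that fit (9.19% of all genes) and 0 a negative one (1.45%). Ucp3 had a slope of -0.02 ± 0.07 over the 7 arrays and of 0.12 ± 0.07 over the 6, neither past the threshold (limma adjusted p 0.957 and 0.542). For Slc27a4 the slope was positive over 7 arrays (0.03) and negative over 6, so its sign turned on the d0 array. The slope of Acsl5 also changed sign (0.03 over 7 arrays). That is no finding, since d1 and d10 carried this gene past the filter.

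Days 5 to 14 were also set against days 1 and 3, windows chosen with earlier results known. The days of a window are not replicates of 1 condition, and their differences are part of the error. No gene of the 12102 passed an adjusted p of 0.05 in limma (0% either way). The largest differences of the set, as the mean log2 of d5, d7, d10 and d14 minus that of d1 and d3, were 0.47 ± 0.07 (SE) for Echs1 (limma adjusted p 0.309), 0.43 ± 0.08 for Acaa2 (0.317), 0.42 ± 0.12 for Acads (0.415) and 0.41 ± 0.09 for Fabp3 (0.342). The median difference was 0.21 over the 30 genes and -0.01 over all genes. At an unadjusted limma p under 0.05, 16 of the 30 were higher on the later days (4.58% of all genes) and 0 lower (4.2%). Without the d3 array Echs1 passed (difference 0.55, limma adjusted p 0.0483), with d1 then standing alone for the early days.

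In 16 of the 30 genes all 4 later arrays lay above both early ones, which 7.19% of all genes showed, and in 1, Slc27a4, all 4 lay below them (7.34%). The 16 were Fabp3 and Cd36 of uptake, Cpt2 of the shuttle, 8 of the 10 in the spiral, Eci2 and Decr1 for unsaturated chains, and all 3 electron carriers. Acadl and Acaa1a were the 2 spiral genes in which the windows overlapped.

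**Figure D4:**
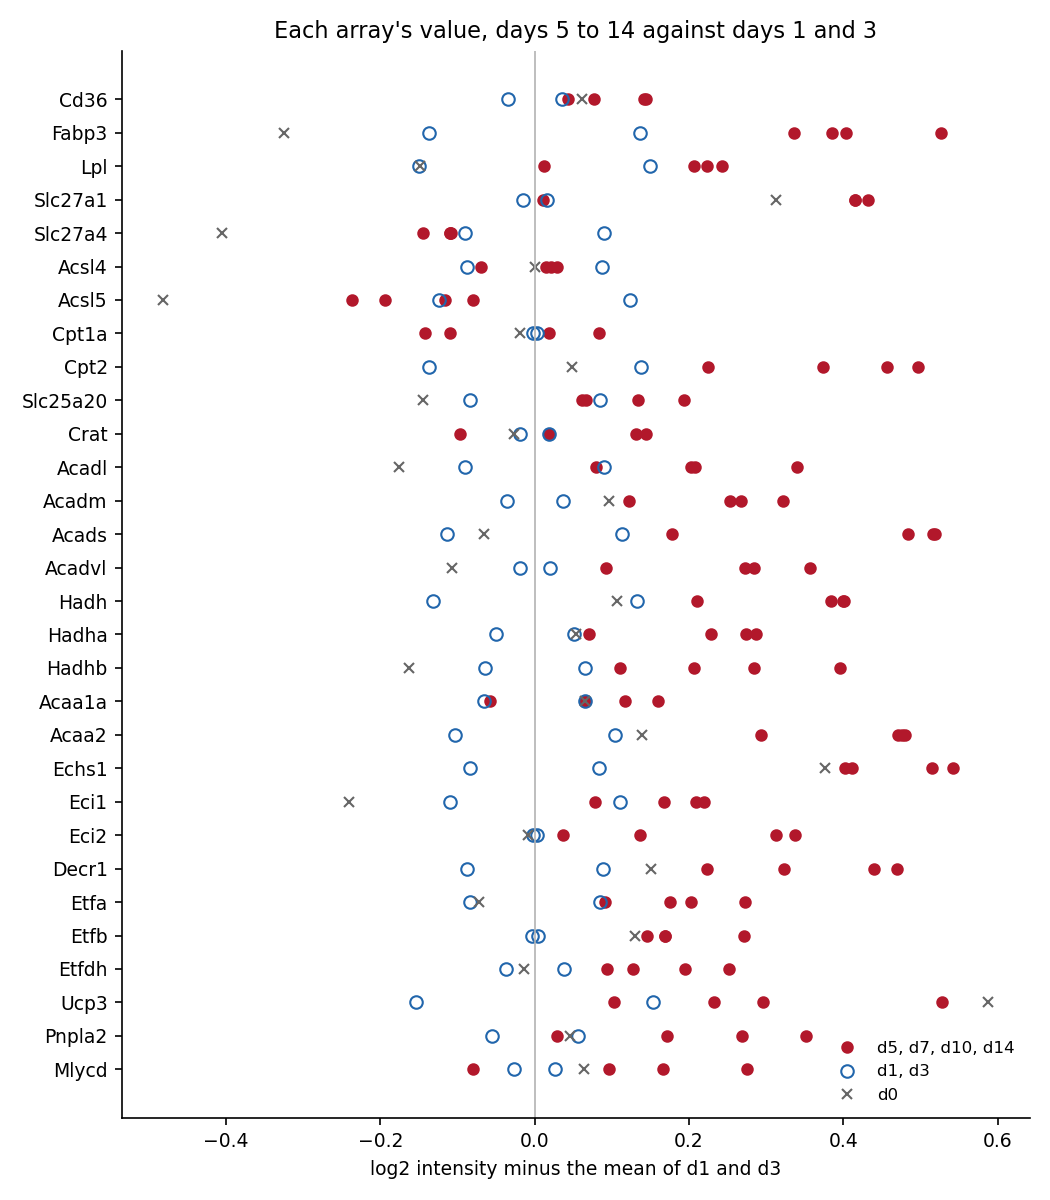
Log2 intensity of each array minus the gene's mean of d1 and d3 (horizontal axis) for each gene (vertical axis), with d5, d7, d10 and d14 as filled circles, d1 and d3 as open circles and d0 as crosses. The 4 filled circles lie right of both open ones in 16 genes, and left of both in Slc27a4.

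A further list of genes around oxidation is mixed. Beside oxidising enzymes it holds transporters (Abcd2, Abcd3), thioesterases (Acot2, Acot13) and genes of amino acid breakdown (Hibch, Acadsb). Its median difference between days 5 to 14 and days 1 and 3 was 0.10. Of 17 past the filter, 1 rose over the 6 reloaded days and 0 fell by limma. The gene that passed an adjusted p of 0.05 was Phyh, the peroxisomal hydroxylase of branched chains, with 2072.7 (d0), 1910.3 (d1), 2079.3 (d3), 2337.3 (d5), 2604.5 (d7), 2921.5 (d10) and 2858.0 (d14; slope 0.23, limma adjusted p 0.0469). With any array left out or with no filter on low values, 0 of all genes rose, so that call was lost. The same held without the intensity trend and with the day on a linear scale. Ech1, a dienoyl-CoA isomerase, had a slope of 0.18 (limma adjusted p 0.0540) and Abcd2, a peroxisomal transporter of very long chains, one of 0.13 (0.158). Decr2, the peroxisomal counterpart of Decr1, had 217.0 at d0, 300.8 at d1 and 201.6 at d14, with a slope of -0.19 (limma adjusted p 0.0731).

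Regulators, storage and transport genes showed medians near 0 in that comparison: 0.03 over 20 regulators, 0.01 over 11 droplet and lipolysis genes, 0.02 over 10 other transport genes and 0.03 over 12 genes of synthesis and storage. By limma 0 genes of these 4 lists rose or fell over the 6 reloaded days, and at an unadjusted limma p under 0.05, 5 of their 53 genes had a positive slope (6.88% of all genes) and 1 a negative one (6.39%). Ppara, a nuclear receptor that drives fatty acid oxidation, had 252.0 (d0), 348.6 on each of d1, d5 and d7, 351.4 (d3), 369.6 (d10) and 357.1 (d14). It thus differed between d0 and the later days and hardly among those. The coactivator Ppargc1a was highest at d1 (1877.2, against 1585.3 at d0), and Ppard ran from 568.4 (d5) to 662.4 (d1). Pdk4, the kinase that turns pyruvate oxidation off when fat is burned, stayed between 6683.1 (d3) and 7609.0 (d7), and Angptl4, an inhibitor of lipoprotein lipase, between 154.2 (d5) and 175.4 (d14). Ucp2 had no row of its own symbol.

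Single genes of these lists differed more than the list medians. Sirt3, a mitochondrial deacetylase, had 253.7 at d0, 290.2 at d1 and 361.7 at d7, and Prkaa1, a catalytic subunit of AMP kinase, was highest at d1 (872.8, against 603.7 at d0). Pdk2, a kinase that restrains pyruvate oxidation, had log2 ratios to d0 of -0.41 at d5 and -0.14 at d14. Lpin1 differed by -0.18 and Dbi, the acyl-CoA-binding protein, by 0.27 (mean log2 of d5 to d14 minus that of d1 and d3). On the same measure Cav1 stood at -0.21, Lmf1 at 0.18 and Acsl6 at -0.16. Among droplet genes Plin3 stood at 0.13, G0s2, an inhibitor of Pnpla2, at -0.13, Cidec at 0.10 and Lipe at 0.09. Dgat2, which makes triglyceride, had 828.3 (d0), 779.6 (d1), 973.4 (d3), 1017.5 (d5), 1150.9 (d7), 1145.4 (d10) and 1197.0 (d14; slope 0.21, limma adjusted p 0.0540). Gpam stood at 0.12, Fasn at 0.11 and Elovl6 at -0.09.

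Other energy lists were set beside the 30 genes. The median difference between days 5 to 14 and days 1 and 3 was 0.25 for 37 oxidative phosphorylation genes, 0.19 for 19 citric acid cycle genes and 0.06 for 17 genes of glycolysis and glycogen, beside 0.21 for the 30. All 4 later arrays lay above both early ones in 30 of the 37, 10 of the 19 and 5 of the 17 (7.19% of all genes). Sdha, Sdhb, Sdhc and Sdhd belong to both the oxidative phosphorylation and the citric acid cycle list. Differences between these lists were not tested. The 10 fast fibre markers were bright on every array (none under 8070.8). They summed to between 129989.1 (d3) and 143863.3 (d0), and 10 of 10 were below d0 at d1, as were 3030 of all 12102 genes. The 10 slow fibre markers summed to 5009.9 (d0), 6945.2 (d1), 9631.3 (d3), 7733.4 (d5), 6772.6 (d7), 8664.7 (d10) and 6174.3 (d14). All 10 slow fibre markers were above d0 at d1, d3, d5 and d10, and 8 of the 10 at d7 and d14. Of all genes, 61.1% (d5) to 72.2% (d10) were above d0 on the reloaded days. The median log2 ratio of the slow fibre markers to d0 was highest at d3 (1.23), where that of the 30 genes was 0.02. At d10, the day on which 12 of the 30 genes were highest, these medians were 0.735 and 0.29. The part of the fibre markers in the courses of the oxidation genes was not tested.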

How the data were processed

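Each row of the deposited table is a transcript cluster, with 1 linear intensity per array that the authors had already normalized. The submitters' processing notes name Partek, with neither version nor step. How background was corrected, probes were summarized and arrays were normalized, and on which build, is not given in the sources used here. Input RNA was 250 ng per the labels' protocol but 100 ng per the design text. No pseudocount was added before log2 (pseudocount 0). Of 35556 rows, 21789 carry a single gene symbol in the platform annotation. For each gene the row of highest mean log2 intensity was used, and a gene was kept when it reached an array's median on at least 1 array. In 53.7% of all rows, but in 3 of the 30 rows used for the set, at least 2 arrays share the same value.

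limma 3.58.1 (lmFit, then eBayes with an intensity trend; R 4.3.3) gave the slopes and windows, after a check on simulated data. Python 3.11.15, numpy 2.4.6, pandas 2.3.3 and matplotlib 3.10.9 did the rest. Each day against d0 is 1 array against 1 array, with no test. Nothing says that the pools were repeated, so p-values measure the spread between pools of different days only. Named were all members, up to 4 genes of each other list by the size of the difference between days 5 to 14 and days 1 and 3, and 6 regulators or lipid genes fixed by name. The members, lists, windows and motifs were chosen with earlier results of these data known. Alternatives were other normalizations, filters, pseudocounts, rows, references, thresholds and day scales, and each array left out. No measure of background per probe was used.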

Additional observations from a re-analysis of the deposited data

How the results depend on the processing

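No paired analysis was possible because each group is 1 array. Normalization and pseudocount moved the medians at d1, d10 and d14 against d0 by less than 0.1. With the mean of a gene's rows the medians were unchanged (-0.0239, 0.2921 and 0.2189), so that setting is no check on row choice. With d14 as the reference they were -0.29 at d1 and 0.0186 at d10, and with the mean of the 6 other arrays -0.21 and 0.18. Among single genes past 1.3-fold, those that changed sign against d14 were Fabp3 at d3 (-0.20), Acads at d7 and d10 (-0.0036 and -0.0358), Acadvl at d7 and d10 (-0.0848 and -0.0736), Cpt2 at d10 (-0.0403) and Eci1 at d10 (-0.0409), and against the other arrays Fabp3 at d3 (-0.0616).

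Over the 6 reloaded days 19 genes rose, 24 fell, and 1 of the set rose. These 3 counts were 75, 65 and 6 with quantile normalization, 93, 69 and 6 with the filter at percentile 75, 0, 3 and 0 with no filter, 0, 4 and 0 without the intensity trend and 0, 0 and 0 with linear days. With equal array medians 31 rose, 4 of them of the set. With an array left out 0 rose, 0 to 3 fell and 0 of the set rose. Over 7 arrays 1 gene rose with equal medians and 1 with the filter at percentile 75, and with an array left out 0 to 19 rose, 0 to 24 fell and 0 to 1 of the set rose, the highest counts without d0. Without d0 this is the fit over the 6 reloaded days, so those highest counts repeat its result. Between the windows 1 gene fell with equal medians and 1 with the filter at percentile 75, and with an array left out 0 to 65 rose, 0 to 204 fell and 0 to 1 of the set rose, the highest counts without d3. Without d1 or d3 the lone early array is assumed to vary like the later ones.

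Some slopes and differences changed sign. Over 7 arrays, with an array left out, they ran from -0.0704 to 0.0702 for Slc27a4, -0.0984 to 0.0764 for Acsl5, -0.0846 to 0.124 for Ucp3, -0.0085 to 0.0104 for Acsl4 and -0.0257 to 0.0138 for Cpt1a, and Acsl4 was 0.0012 with linear days. Over 6 days they ran from -0.0196 to 0.0668 for Acsl4, -0.0023 to 0.172 for Ucp3 and -0.0418 to 0.0224 for Cpt1a, and Acsl4 was 0.0026 with quantile normalization and 0.0017 with linear days. Between the windows Acsl4 ran from -0.0894 to 0.0859 and was 0.0178 with quantile normalization and 0.0036 with equal medians. The range of Acsl5 is no finding, since d1 and d10 carried it past the filter. Over 7 arrays the ends at -0.0704, -0.0984 and 0.124 come from the fit without d0, which is the fit over the 6 reloaded days. The causes of these changes of sign were not tested.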
